A study of Arabidopsis thaliana with 9 samples.

Results

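Wild-type (WT) seedlings of Arabidopsis thaliana, the small cress used as a model plant, were profiled by mRNA sequencing in 3 libraries, which are 3 of the 9 libraries of the series. They were chosen as the libraries whose genotype is labelled wild type, with no allele or agent added. The plants were 10 days old and had grown on plates of MS medium, a mineral salt medium for plants, at 22 °C in days of 16 h light and 8 h dark. Total RNA came from 1 g of seedlings per sample, so every value is an average over the organs of a seedling, and fewer cells of a type and less RNA per cell cannot be told apart. The other 6 libraries carry the mutant genotypes arid2/3/4 and epcr1/2 and were not compared here. The labels give no hour of harvest and name no separate cultures, so the spread between the 3 libraries may be technical.

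In a green seedling photosynthesis and protein synthesis are among the functions with abundant messenger RNA. Rubisco, the enzyme that fixes carbon dioxide, is built from a large subunit encoded in the chloroplast and small subunits encoded in the nucleus by the RBCS genes, and the LHC genes encode the chlorophyll-binding antenna proteins of the photosystems. A circadian clock of repressors that act in turn through the day (CCA1 and LHY around dawn, the PRR proteins through the day, the evening complex of ELF3, ELF4 and LUX around dusk) times many of these genes. Levels of clock genes are therefore tied to the hour at which tissue is collected.

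Levels are given in FPKM, fragments per kilobase of transcript scaled to the depth of the library. The unit is meant to let genes of different length be compared. It serves this less well for very short transcripts, whose values moved in large steps in replicate 3. AT2G07743 and AT4G12405, both of 74 nt, were listed at 44.9 FPKM there, and AT2G07758, also of 74 nt, at 134.6 FPKM. Levels of such transcripts are therefore not safely ranked against those of longer genes. The deposited table lists 28117 genes, and the 3 WT columns sum to 919799 FPKM in replicate 3, and 862950 and 877567 FPKM in replicates 1 and 2. A value above 0 was listed for 23438 genes in replicate 3, and for 22560 and 22490 genes in replicates 1 and 2. The steps between the lowest values give a rough depth of 49.9 M fragments for replicate 3, and 22.4 and 20.09 M for replicates 1 and 2. Replicate 3 stood apart from the other 2 libraries: across all genes, which are not independent replicates, Pearson's r of log2(FPKM + 1) was 0.927 between replicates 3 and 1, 0.927 between replicates 3 and 2, and 0.996 between replicates 1 and 2. Results that compare the libraries are therefore given library by library, and pooled means stand with their SD. No p-value is given, since there is 1 library of the kind of replicate 3.

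**Figure D1:**
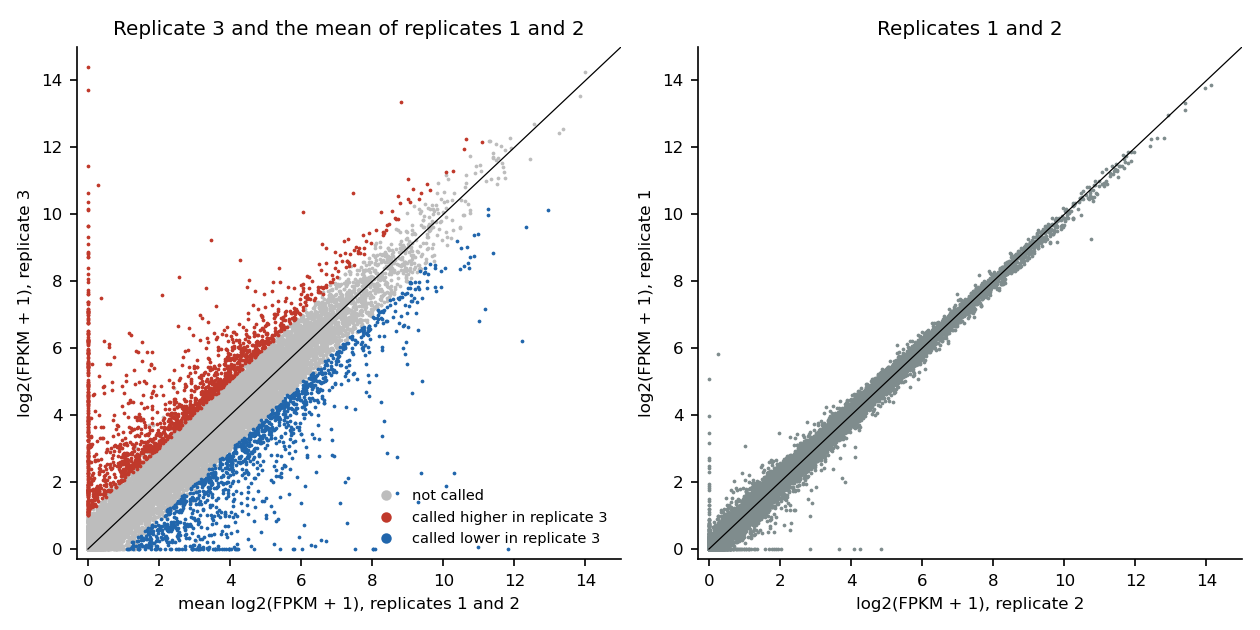
Each point is a gene on log2(FPKM + 1) axes. On the left, replicate 3 is plotted against the mean of replicates 1 and 2, with the 1632 genes called higher in replicate 3 in red and the 1231 called lower in blue; on the right, replicate 1 is plotted against replicate 2, where 78 genes lie at least 2-fold apart.

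A small share of the genes held a large share of the summed FPKM. On the mean of the 3 libraries, 92 genes (0.327%) reached 1000 FPKM or more and held 27.1% of the summed FPKM, and another 1260 genes lay at 100 to 1000 FPKM and held 36.5%. Between 10 and 100 FPKM there were 9512 genes with 31.7% of the sum, and between 1 and 10 FPKM 8458 genes with 4.55%. The 100 genes of highest mean held 28.0% of the sum of the mean levels. The 100 highest genes of a library held 30.7% of its sum in replicate 3, and 27.3% and 29.4% in replicates 1 and 2 (SD of these shares 1.74, n = 3). The 10 highest genes of a library held 11.4% of its sum in replicate 3, and 9.14% and 10.4% in replicates 1 and 2. Those of replicate 3 include AT2G01021 (21605 FPKM, 102 nt) and the metallothionein gene MT1A (13563 FPKM, 138 nt). Both were listed at 0 in replicates 1 and 2, and all of their 50-base stretches also occur in another gene. As very short transcripts, both hold an uncertain rank among the highest genes. In all 3 libraries 17968 genes (63.9%) were at 1 FPKM or more.

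The gene of highest mean level was RBCS1A (AT1G67090), a Rubisco small subunit, with 19541 FPKM in replicate 3 and 14868 and 17786 FPKM in replicates 1 and 2 (17398 ± 2360.1 FPKM, mean ± SD, n = 3). LHCB1.3 (AT1G29930), an antenna protein of photosystem II, followed with 11850.5 FPKM in replicate 3 and 13896 and 15789 FPKM in replicates 1 and 2 (13845 ± 1969.5 FPKM). PSBR (AT1G79040), a subunit of the oxygen-evolving part of photosystem II, had 5956 FPKM in replicate 3 and 10379 and 10812 FPKM in replicates 1 and 2 (9049 ± 2687 FPKM). RBCS1A was highest and LHCB1.3 lowest in replicate 3, and PSBR was lower there than in the other pair. RCA (AT2G39730), Rubisco activase, stood at 4144 ± 689 FPKM and PSBTN (AT3G21055), a small photosystem II protein, at 3931 ± 176 FPKM. PSBTN had the narrowest spread of the 25 highest genes, with an SD of 0.0651 on the log2 scale. In 6 of those 25 genes replicate 3 differed by more than 4-fold from both other libraries. AT2G01021 and MT1A were listed at 0 in replicates 1 and 2, and AT3G08520, annotated as ribosomal protein L41, was higher in replicate 3. MT2B, RBCS1B and the 18S ribosomal RNA gene AT3G41768 were lower there.

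**Figure D2:**
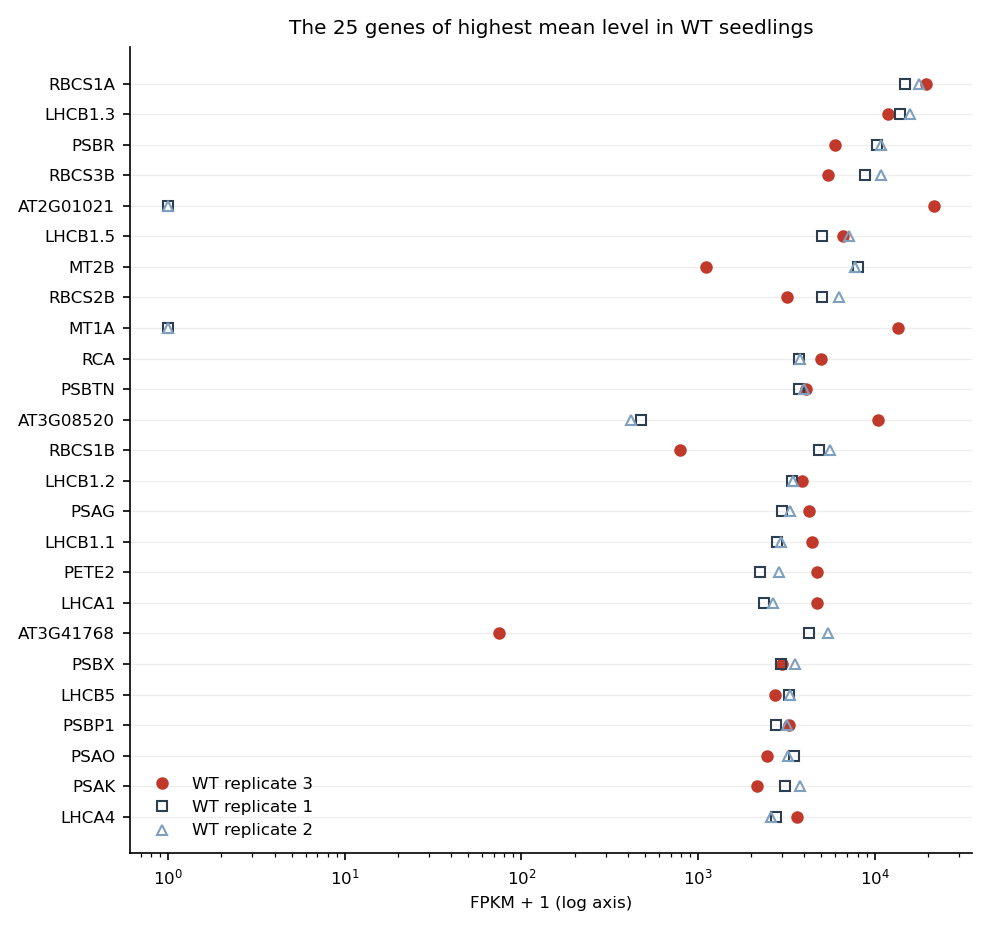
Levels of the 25 genes of highest mean FPKM, as FPKM + 1 on a log axis, with a filled circle for WT replicate 3, an open square for replicate 1 and an open triangle for replicate 2. Most photosynthesis genes have their 3 libraries close together, while MT2B, RBCS1B and AT3G41768 lie to the left in replicate 3 and AT2G01021, MT1A and AT3G08520 to the right.

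All 21 antenna genes of the light-harvesting list were above 1 FPKM in every library, and together they held 6.86% of the summed FPKM in replicate 3 and 6.003% and 6.58% in replicates 1 and 2. The level was uneven within the family. LHCB1.3 had the highest mean, and LHCB1.2 had 3886 FPKM in replicate 3 and 3418 and 3438 FPKM in replicates 1 and 2. LHCA1, an antenna of photosystem I, had 4692 FPKM in replicate 3 and 2375 and 2658 FPKM in replicates 1 and 2. The lowest member in replicate 3 was LHCB4.3, a minor antenna of photosystem II, with 20.7 FPKM in replicate 3, against 100.2 and 97.5 FPKM in replicates 1 and 2. The 30 nuclear genes for photosystem subunits and electron carriers held 7.32% of the summed FPKM in replicate 3 and 6.94% and 7.46% in replicates 1 and 2. PSBX, a photosystem II subunit, had 2986 FPKM in replicate 3 and 2967 and 3528 FPKM in replicates 1 and 2. PSAO, of photosystem I, had 2459 FPKM in replicate 3 and 3509 and 3232 FPKM in replicates 1 and 2, with replicate 3 the lowest of the 3. Some RBCS, LHCB1 and LHCB2 genes share sequence, and reads of shared stretches may be split among them, so levels of those members are less certain. The share of a transcript's 50-base words that also occur in another gene was 28.2% in LHCB2.2 and 21.4% in RBCS2B. It was 1.48% in RBCS1A and 0% in LHCB2.3.

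The 27 genes of the Calvin cycle, which fixes carbon, and of photorespiration, which recovers the carbon lost to the oxygenase reaction of Rubisco, held 6.16% of the summed FPKM in replicate 3 and 6.32% and 7.17% in replicates 1 and 2. GAPA, a subunit of the chloroplast glyceraldehyde-3-phosphate dehydrogenase, had 1155 FPKM in replicate 3 and 1071 and 1076 FPKM in replicates 1 and 2. SHM1, the mitochondrial serine hydroxymethyltransferase of photorespiration, had 852 FPKM in replicate 3 and 845 and 800.4 FPKM in replicates 1 and 2. The libraries lay close together in both genes. CA1, a chloroplast carbonic anhydrase, had 4891 FPKM in replicate 3, against 1464 and 1762 FPKM in replicates 1 and 2, and so stood apart in replicate 3. The 16 genes of chlorophyll synthesis held a smaller share, 0.558% of the summed FPKM in replicate 3 and 0.401% and 0.371% in replicates 1 and 2. Among them PORB, a light-dependent protochlorophyllide reductase, had 224 FPKM in replicate 3 and 659 and 599 FPKM in replicates 1 and 2, while PORA, the form of etiolated seedlings, had 6.602 FPKM in replicate 3 and 4.1 and 3.73 FPKM in replicates 1 and 2.

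Protein synthesis was the other large share. The 324 genes described as cytosolic ribosomal proteins held 8.01% of the summed FPKM in replicate 3 and 8.87% and 8.95% in replicates 1 and 2, and 295 of them were at 1 FPKM or more in every library. The share of replicate 3 includes 10433 FPKM of a single gene, AT3G08520, with a transcript of 246 nt. That gene had 477 and 414 FPKM in replicates 1 and 2, so without it the family's share in replicate 3 would lie further below the others. LOS1, elongation factor 2, had 398 FPKM in replicate 3 and 399 and 399.5 FPKM in replicates 1 and 2. EF1A4, an elongation factor 1-alpha, had 1343 FPKM in replicate 3 and 1101 and 1102 FPKM in replicates 1 and 2. Outside these functions MT3, a metallothionein (a small metal-binding protein), had 3135 FPKM in replicate 3 and 2898 and 2803 FPKM in replicates 1 and 2. TGG1, a myrosinase that cleaves glucosinolates in guard cells and myrosin cells, had 1012 FPKM in replicate 3 and 1605 and 1429 FPKM in replicates 1 and 2. Both replicates 1 and 2 were above replicate 3 in TGG1, and likewise in LTP1, a lipid transfer protein of the epidermis, with 1055 FPKM in replicate 3, against 1595 and 1887 FPKM in replicates 1 and 2. PIP1;2, a water channel of the plasma membrane, had 1141 FPKM in replicate 3 and 811 and 868 FPKM in replicates 1 and 2.

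A value of 0 was listed unevenly over gene classes. In all 3 libraries 3996 genes (14.2%) were listed at 0. They include all 278 genes encoded in the chloroplast and mitochondrion, which were at 0 throughout and carry no measurement here. A listed 0 is no proof of silence: transfer RNAs are used by every cell, and of 918 genes whose longest annotated transcript is under 200 nt, 177 were above 0 in replicate 3, and 2 and 3 in replicates 1 and 2. Of the 489 nuclear transfer RNA genes 476 (97.3%) were at 0 in every library, as were 111 of 176 microRNA genes (63.1%). Among families named by their annotation, 83.1% of 65 plant self-incompatibility proteins, small secreted proteins first known from the pollen rejection of poppies, were at 0, along with 68.1% of 113 defensin-like proteins, 55.3% of 85 transposable element genes, 54.1% of 37 RALF-like peptides and 45.2% of 629 F-box proteins, the substrate adaptors of ubiquitin ligases. By contrast 1.92% of 156 genes for disease resistance proteins of the NBS-LRR type, the intracellular immune receptors, and 2.59% of 309 pentatricopeptide repeat genes, whose proteins process organelle RNA, were at 0. Many had a level: 87 of 156 and 209 of 309 were at 1 FPKM or more in every library. Length bears on this contrast. At 300 to 500 nt 31.4% of genes were above 0 in replicate 3, and 17.0% and 18.6% in replicates 1 and 2. At 2000 to 4000 nt the shares were 97.4% in replicate 3, and 96.8% and 96.6% in replicates 1 and 2. The part of length in the family shares was not tested.

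The labelled tissue was checked against genes of organs and stages. None of 18 seed storage and maturation genes reached 1 FPKM in any library, with CRA1, a 12S globulin, at 0.370 FPKM in replicate 3 and 0.355 and 0.521 FPKM in replicates 1 and 2. LEC1, a master regulator of embryos, was listed at 0 in all 3. Of 19 pollen and anther genes 17 stayed under 1 FPKM in every library, the exceptions being ANX1 (2.502, against 1.096 and 1.03 FPKM, replicate 3 first), a receptor kinase of the pollen tube, and AGP6 (0.246, against 0.966 and 1.06 FPKM). Of 18 genes of flowering and floral identity 11 stayed under 1 FPKM. SVP, a repressor of flowering, had 45.7 FPKM in replicate 3 and 49.02 and 48.4 FPKM in replicates 1 and 2, whereas AP1, which marks young flowers, had 0.0812 FPKM in replicate 3 and 0.0345 and 0 FPKM in replicates 1 and 2. Root was present: CASP1, of the endodermal Casparian strip, had 31.5 FPKM in replicate 3 and 24.4 and 29.3 FPKM in replicates 1 and 2, and 25 of 26 root genes reached 1 FPKM in some library. A gene of a small group of cells was near 0, with WUS, of the shoot organising centre, at 0 FPKM in replicate 3 and 0 and 0.0423 FPKM in replicates 1 and 2.

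Chromatin and cell division genes lay at low to middle levels. The series title names the PEAT complexes, and all 14 genes of that list were at 4 FPKM or more in every library. ARID2, a DNA-binding protein with an ARID domain, had 22.5 FPKM in replicate 3 and 22.5 and 20.15 FPKM in replicates 1 and 2. HAM1, a histone acetyltransferase, had 22.3 FPKM in replicate 3 and 23.01 and 19.6 FPKM in replicates 1 and 2, and PWWP3, the lowest of the list, 5.96 FPKM in replicate 3 and 4.53 and 4.17 FPKM in replicates 1 and 2. ROS1, a DNA demethylase whose expression follows DNA methylation, had 17.2 FPKM in replicate 3 and 15.6 and 15.2 FPKM in replicates 1 and 2. FWA, which is silenced by methylation in vegetative tissue, stood near 0 with 0.0296 FPKM in replicate 3 and 0 and 0.0357 FPKM in replicates 1 and 2. Of the 22 cell cycle genes all passed 1 FPKM, and CYCB1;1, a mitotic cyclin, had 6.16 FPKM in replicate 3 and 6.05 and 5.33 FPKM in replicates 1 and 2.

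Stability was measured as the SD of log2(FPKM + 1) over the 3 libraries, and a gene with an SD under 0.2 and a mean of 1 FPKM or more was called stable. Of 19322 genes at that mean, 7350 (38.04%) were stable. The share was 37.1% at 1 to 10 FPKM, 39.7% at 10 to 100, 33.2% at 100 to 1000 and 20.7% at 1000 FPKM or more, so the most abundant genes were the least often stable. Over replicates 1 and 2 alone 16608 genes had an SD under 0.2, so the measure is mostly one of how far replicate 3 lay from the others.

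Among genes of 100 FPKM or more the narrowest spread was that of LOS1 at 399 ± 1.01 FPKM (mean ± SD, n = 3), followed by ACO3, an aconitase, at 100.02 ± 0.516 FPKM and APG1, a chloroplast methyltransferase of plastoquinone and tocopherol synthesis, at 382 ± 1.99 FPKM. GPX2, a glutathione peroxidase, the ribosomal protein gene AT5G47930, GUN1, of signalling from chloroplast to nucleus, AT5G57040, PRH75, a DEAD-box RNA helicase, AT3G29240 and ADG1, a subunit of the enzyme that opens starch synthesis, completed the 10 most stable, with SDs of 0.0140 to 0.0213 on the log2 scale. Between 10 and 100 FPKM the narrowest was AT4G35080, annotated in a nickel transport family, at 23.7 ± 0.0264 FPKM. PHF1, which helps phosphate transporters leave the endoplasmic reticulum, stood at 12.2 ± 0.0297 FPKM and PAE2, a proteasome subunit, at 46.3 ± 0.224 FPKM. These are the extremes of 7350 genes over 3 libraries, and their order has no replicate check.

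Genes that laboratories use as references in quantitative PCR had a median SD of 0.229 on the log2 scale over the 16 of 17 that reached 1 FPKM, beside 0.263 over all compared genes. ACT2, an actin, had 305 FPKM in replicate 3 and 284 and 263 FPKM in replicates 1 and 2. UBQ5, a ubiquitin gene, had 415 FPKM in replicate 3 and 407 and 459 FPKM in replicates 1 and 2, and AP2M, an adaptor subunit of coated vesicles, 42.8 FPKM in replicate 3 and 38.4 and 38.2 FPKM in replicates 1 and 2. In these 3 genes the libraries lay close together. In others they did not: UBQ10, a polyubiquitin gene, had 645 FPKM in replicate 3, against 1146 and 1063 FPKM in replicates 1 and 2. SAND, of vesicle traffic to the vacuole, had 30.9 FPKM in replicate 3, against 16.9 and 15.7 FPKM in replicates 1 and 2. YLS8, a splicing protein, lay furthest apart, with 91.5 FPKM in replicate 3, against 244 and 235 FPKM in replicates 1 and 2. The helicase gene AT1G58050, used as a reference in some protocols, stood at 0 FPKM in replicate 3 and 0.0250 and 0 FPKM in replicates 1 and 2.

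Replicate 3 was compared with replicates 1 and 2 over the 19968 genes that reached 1 FPKM in any of them. A gene was called higher (or lower) where its log2(FPKM + 1) in replicate 3 lay at least 1, a 2-fold difference, above the higher (or below the lower) of the other pair. By that rule 1632 genes (8.17%) were higher and 1231 (6.16%) lower in replicate 3, together 14.3%, while replicates 1 and 2 were 2-fold apart for 78 genes (0.391%). Below, "difference" means log2(FPKM + 1) of replicate 3 minus the mean of replicates 1 and 2, which understates the fold of genes at low FPKM. Its median over all compared genes was 0.15, and a scaling of the libraries by the median of their gene ratios moved it to 0.01 and the calls to 1265 higher and 1538 lower, so that 45.1% of the calls were higher against 57.0% without it. Directions near 0 are read against that shift. The lists and their members were chosen with earlier results of these data known. Their counts, medians and order below therefore describe the listed genes and are no test of a function.

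**Figure D3:**
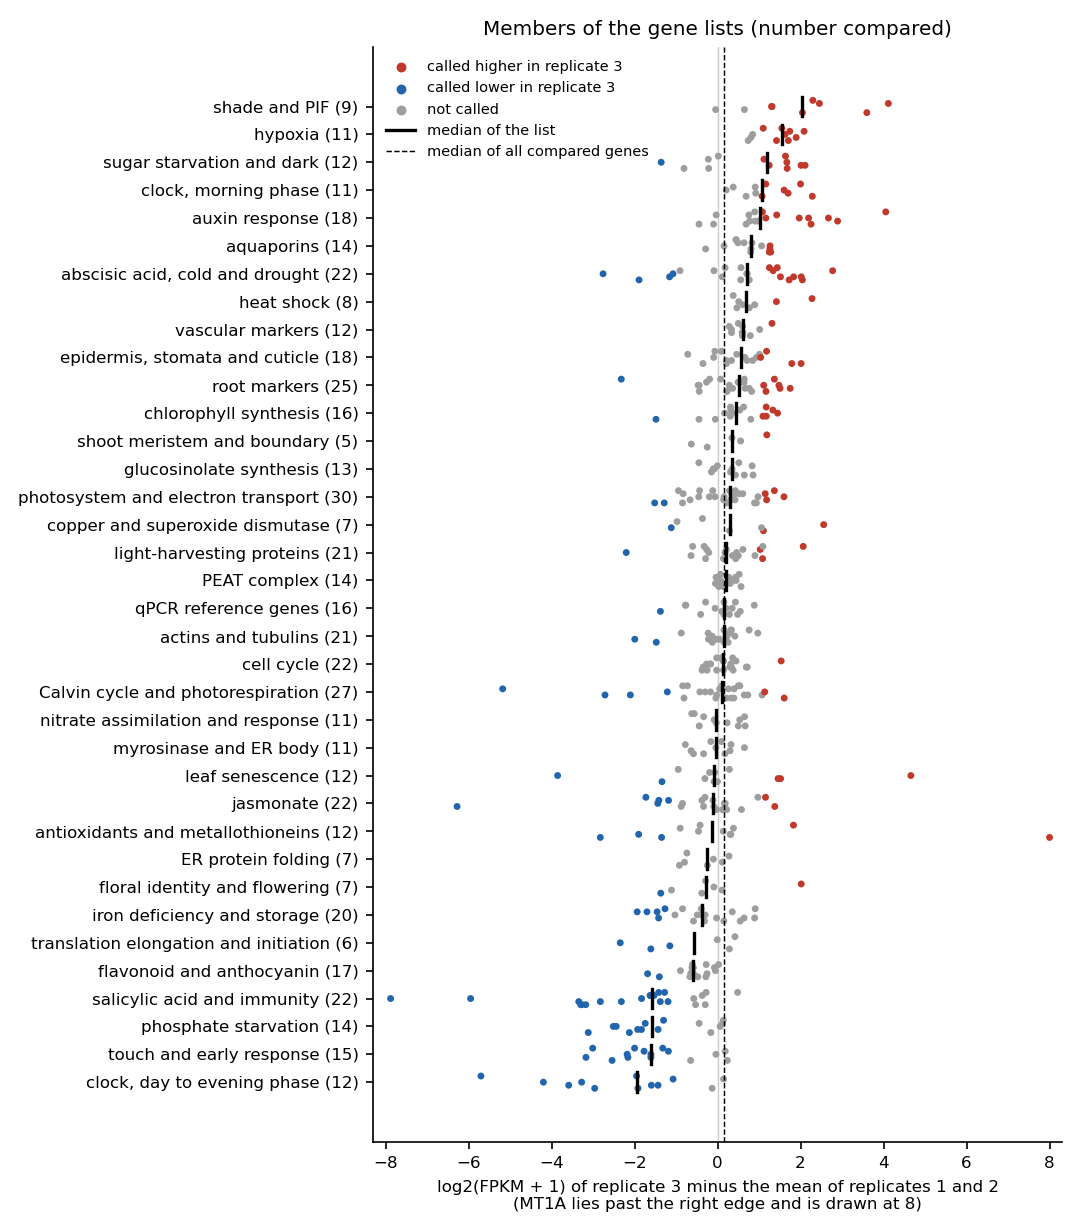
Each point is a member of a gene list with 5 or more compared members, placed by log2(FPKM + 1) of replicate 3 minus the mean of replicates 1 and 2, red where called higher, blue where called lower and grey where not called. Black bars are list medians, from 2.05 for the shade and PIF list at the top to -1.93 for the day-to-evening clock list at the bottom, and the dashed line is the median of all compared genes, 0.15.

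The 2 clock lists differed in opposite directions. Of 12 clock genes of the day and evening, 10 were lower in replicate 3 and 0 higher, with a median difference of -1.93. ELF4 (AT2G40080), of the evening complex, had 1.602 FPKM in replicate 3, against 139 and 130.4 FPKM in replicates 1 and 2 (difference -5.70). FKF1 (AT1G68050), a blue light receptor that opens the way to flowering in long days, had 0.0609 FPKM in replicate 3, against 12.6 and 10.97 FPKM in replicates 1 and 2 (-3.59). GRP7 (AT2G21660), an RNA-binding protein driven by the clock, had 110.4 FPKM in replicate 3, against 1938 and 2149 FPKM in replicates 1 and 2 (-4.20). In each of these genes replicate 3 lay more than 10-fold below the other pair, which lay close together. PRR5 and PRR3, pseudo-response regulators that repress morning genes, are a further pair: PRR5 had 0.599 FPKM in replicate 3, against 14.5 and 14.4 FPKM in replicates 1 and 2. PRR3 had 0.351 FPKM in replicate 3, against 10.9 and 8.305 FPKM in replicates 1 and 2. Both stood under 1 FPKM in replicate 3, while TOC1 (AT5G61380), the evening repressor, kept a higher level with 8.89 FPKM in replicate 3, against 31.3 and 26.6 FPKM in replicates 1 and 2. LUX (AT3G46640), the DNA-binding member of the evening complex, had 5.72 FPKM in replicate 3, against 24.1 and 24.6 FPKM in replicates 1 and 2. Of its exonic bases 21.5% overlap another gene, and of those of its relative BOA 52.4%. GI, which acts with FKF1, was not called (7.92 FPKM in replicate 3 and 8.76 and 8.77 FPKM in replicates 1 and 2). Nor was ZTL, a photoreceptor that targets TOC1 for degradation (23.7 FPKM in replicate 3 and 21.98 and 20.8 FPKM in replicates 1 and 2).

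Of 11 clock genes of the morning, 6 were higher and 0 lower in replicate 3, with a median difference of 1.07 and all 11 differences above 0. CCA1, the dawn repressor, had 82.4 FPKM in replicate 3, against 27.3 and 25.6 FPKM in replicates 1 and 2 (1.603). LNK1, a coactivator that binds RVE proteins, had 60.96 FPKM in replicate 3, against 12.5 and 11 FPKM in replicates 1 and 2. Its relative LNK2 had 222 FPKM in replicate 3, against 61.8 and 48.5 FPKM in replicates 1 and 2. In all 3 genes replicate 3 stood well apart from a close pair. LHY, the partner of CCA1, had 58.7 FPKM in replicate 3, against 40.01 and 32.5 FPKM in replicates 1 and 2, and was not called. Under the median-of-ratios scaling 4 of the 6 kept their call and PRR7 and CDF1 lost it, whereas all 10 evening calls held.

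**Figure D4:**
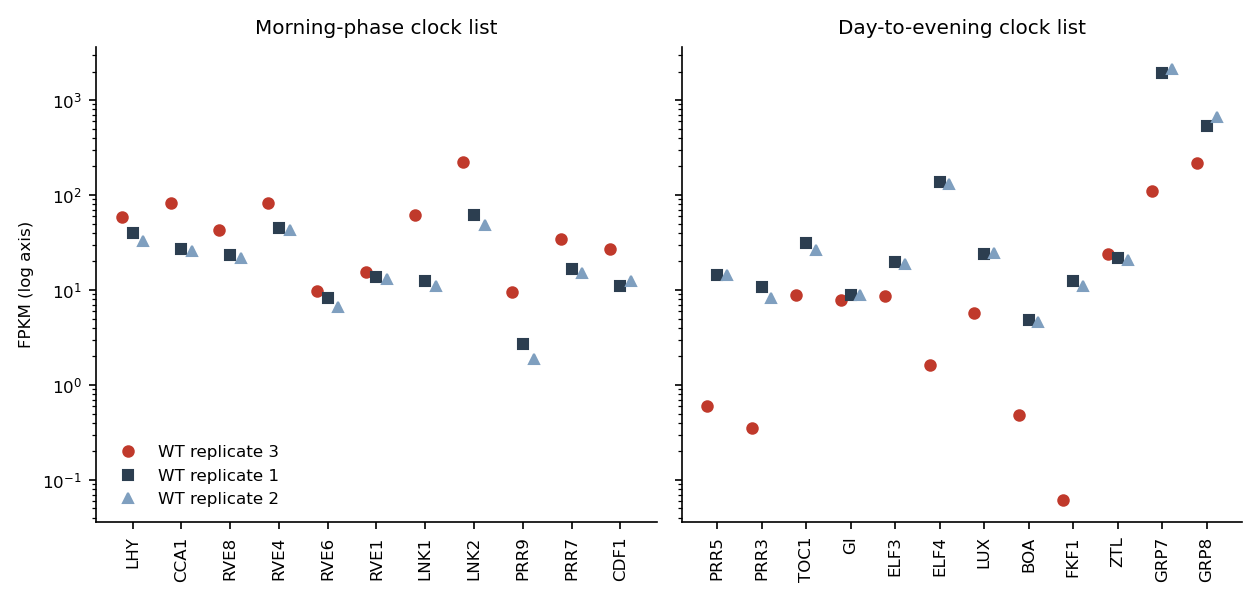
FPKM on a log axis of the 11 morning-phase (left) and 12 day-to-evening (right) clock genes in WT replicate 3 (red circles), replicate 1 (dark squares) and replicate 2 (light triangles). Replicate 3 lies above the other pair in every morning gene and below it in 11 of the 12 evening genes, ZTL being the exception.

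To show the sequence in front of the evening genes, the 300 bases before the annotated start of each gene were read from the TAIR10.1 genome with RefSeq's own annotation, since the deposited table carries no coordinates. They were searched on both strands for the evening element AAAATATCT, a motif bound by CCA1 and related clock proteins. It was present before 7 of the 12 day-to-evening clock genes (58.3%), before 0 of the 11 morning genes and before 2.83% of 26691 protein-coding genes. Of the genes called lower in replicate 3, 63 of 1195 (5.27%) had it, and of those called higher 36 of 1434 (2.51%). The following 6 windows hold it, written 5′ to 3′ on the gene's own strand with matches on either strand in capitals.
TOC1: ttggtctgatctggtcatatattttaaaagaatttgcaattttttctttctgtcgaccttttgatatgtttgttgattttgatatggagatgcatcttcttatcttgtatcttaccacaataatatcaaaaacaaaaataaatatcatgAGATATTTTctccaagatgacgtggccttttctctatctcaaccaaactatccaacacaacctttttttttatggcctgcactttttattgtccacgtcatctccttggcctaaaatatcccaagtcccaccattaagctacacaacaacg
LUX: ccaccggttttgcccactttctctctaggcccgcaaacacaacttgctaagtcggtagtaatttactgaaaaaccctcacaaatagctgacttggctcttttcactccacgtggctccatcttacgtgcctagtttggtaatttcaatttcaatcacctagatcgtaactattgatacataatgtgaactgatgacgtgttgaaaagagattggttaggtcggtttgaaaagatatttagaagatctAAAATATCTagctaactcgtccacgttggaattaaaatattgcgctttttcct
FKF1: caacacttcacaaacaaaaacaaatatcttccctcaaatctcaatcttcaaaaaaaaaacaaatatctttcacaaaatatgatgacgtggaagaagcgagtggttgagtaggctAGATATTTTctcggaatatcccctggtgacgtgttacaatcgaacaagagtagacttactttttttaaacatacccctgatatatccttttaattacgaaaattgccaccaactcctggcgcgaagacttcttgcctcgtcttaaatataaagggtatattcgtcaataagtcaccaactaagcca
PRR5: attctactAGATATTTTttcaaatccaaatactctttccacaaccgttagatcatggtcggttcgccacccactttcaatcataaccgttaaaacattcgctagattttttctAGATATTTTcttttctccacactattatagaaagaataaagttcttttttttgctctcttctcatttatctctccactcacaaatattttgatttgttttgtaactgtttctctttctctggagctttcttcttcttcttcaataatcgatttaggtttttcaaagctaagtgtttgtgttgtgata
GRP8: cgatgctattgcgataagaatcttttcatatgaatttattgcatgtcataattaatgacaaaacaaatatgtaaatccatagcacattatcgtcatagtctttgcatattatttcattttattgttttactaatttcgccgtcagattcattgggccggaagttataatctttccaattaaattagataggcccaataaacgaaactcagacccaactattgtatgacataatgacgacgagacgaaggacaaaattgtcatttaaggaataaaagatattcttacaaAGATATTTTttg
GRP7: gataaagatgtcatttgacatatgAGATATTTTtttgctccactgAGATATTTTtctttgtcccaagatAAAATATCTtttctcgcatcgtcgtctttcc
In TAIR10.1 they lie at chr5:24674663-24674962, plus strand (TOC1), chr3:17182742-17183041, plus strand (LUX), chr1:25508339-25508638, plus strand (FKF1), chr5:8358547-8358846, minus strand (PRR5), chr4:18275217-18275516, minus strand (GRP8) and chr2:9266558-9266657, minus strand (GRP7). For GRP7, which holds 3 matches, the nearest 100 bases are shown because the far end of its window lies in an exon of a neighbouring gene. The motif was also before BOA and absent from the windows of ELF4, ELF3, PRR3, GI and ZTL. A match is a run of letters and no proof of binding, and ELF4 differed most of this list without a match in its window.

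Genes of shade and of the PIF factors were the list with the largest positive median. PIFs are transcription factors that promote stem growth and are degraded in light through phytochrome. Of 9 genes 7 were higher in replicate 3 and 0 lower (median 2.05). PIF4 itself had 104 FPKM in replicate 3, against 19.2 and 17.1 FPKM in replicates 1 and 2 (2.45). PIF5 had 121 FPKM in replicate 3, against 29.7 and 27.6 FPKM in replicates 1 and 2 (2.05). HFR1, a bHLH protein induced by shade, had 29.3 FPKM in replicate 3, against 1.51 and 1.49 FPKM in replicates 1 and 2 (3.60). All 3 lay 4-fold or more above the other libraries. PIL1, a further bHLH protein of shade, had 11 FPKM in replicate 3, against 1.42 and 1.47 FPKM in replicates 1 and 2. PRE1, a small bHLH protein that promotes elongation, had 48.4 FPKM in replicate 3, against 1.38 and 2.42 FPKM in replicates 1 and 2 (4.11). PIF3 was not called (11.9, against 12.7 and 12 FPKM). All 7 calls held under each scaling tried. The G-box CACGTG, a motif bound by PIFs, was in the window of 1 of these 9 genes, PIF5, and before 7.18% of all protein-coding genes.

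The auxin list had higher calls and no lower ones. Of 18 genes of auxin response and synthesis 9 were higher and 0 lower (median 1.03), and 7 of the calls held under median-of-ratios scaling. IAA29, an Aux/IAA repressor protein, had 39.5 FPKM in replicate 3, against 1.13 and 1.79 FPKM in replicates 1 and 2 (4.05). HAT2, a homeodomain protein, had 85.8 FPKM in replicate 3, against 12.5 and 12.7 FPKM in replicates 1 and 2 (2.67). YUC9, an enzyme of auxin synthesis, had 11.6 FPKM in replicate 3, against 1.26 and 2.07 FPKM in replicates 1 and 2 (2.25). Not every member stood apart: IAA7, of the same family as IAA29, was not called, with 114 FPKM in replicate 3 and 113 and 122 FPKM in replicates 1 and 2. Of 62 compared genes of the SAUR family, small proteins induced by auxin, 21 were higher and 0 lower (median 0.46). Of 86 genes for extensins and arabinogalactan proteins, glycoproteins of the cell wall, 33 were higher and 2 lower (median 0.79), and their share of the summed FPKM was 1.39% in replicate 3 and 0.671% and 0.747% in replicates 1 and 2.

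The list of salicylic acid and immunity had lower calls and no higher ones. Of 22 genes of salicylic acid and immunity 16 were lower in replicate 3 and 0 higher (median -1.57), with 21 of 22 differences below 0, and the 16 calls held under each scaling. A stricter filter, of 10 FPKM in any library, left out the called genes WRKY46, SARD1, CBP60G, FRK1, FMO1, PAD3 and NIMIN1. PR1, a secreted protein used as the marker of salicylic acid responses, had 1.67 FPKM in replicate 3, against 592 and 666 FPKM in replicates 1 and 2 (-7.88). PR5, a thaumatin-like protein, had 3.43 FPKM in replicate 3, against 41.5 and 42.2 FPKM in replicates 1 and 2 (-3.27). WRKY70, a transcription factor of the pathway, had 6.05 FPKM in replicate 3, against 65.1 and 76.4 FPKM in replicates 1 and 2 (-3.34). In these 3 genes replicates 1 and 2 were a close pair more than 10-fold above replicate 3. PCC1, named for control by pathogens and the clock, had 5.70 FPKM in replicate 3, against 421 and 407 FPKM in replicates 1 and 2 (-5.95), and 30.8% of its 50-base words occur in another gene. NIMIN1, which binds the receptor NPR1, had 0.0493 FPKM in replicate 3, against 9.30 and 7.73 FPKM in replicates 1 and 2. Genes that act before the PR genes were split. SARD1 and CBP60G, transcription factors that activate ICS1, were called lower. SARD1 had 0.649 FPKM in replicate 3, against 4.75 and 3.45 FPKM in replicates 1 and 2. CBP60G had 0.754 FPKM in replicate 3, against 7.74 and 7.75 FPKM in replicates 1 and 2. ICS1, the enzyme of salicylic acid synthesis, had 13.2 FPKM in replicate 3 and 9.30 and 9.02 FPKM in replicates 1 and 2. NPR1 had 9.19 FPKM in replicate 3 and 14.3 and 14.1 FPKM in replicates 1 and 2, and EDS1, an immune regulator, 13.5 FPKM in replicate 3 and 17.3 and 15.9 FPKM in replicates 1 and 2. ICS1, NPR1 and EDS1 were not called. The W-box core TTGACC, a motif of WRKY proteins, was before 3 of the 22 genes (13.6%) and before 13.99% of all protein-coding genes.

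The jasmonate list had calls both ways. Of 22 jasmonate genes 5 were lower and 2 higher (median -0.10). PDF1.2, a plant defensin, had 0.213 FPKM in replicate 3, against 85.3 and 101 FPKM in replicates 1 and 2 (-6.28). VSP1, a storage protein of wounding, had 5.69 FPKM in replicate 3, against 19.4 and 23.02 FPKM in replicates 1 and 2. LOX2, a lipoxygenase of jasmonate synthesis, had 151 FPKM in replicate 3, against 341 and 344 FPKM in replicates 1 and 2. VSP2 (63.3, against 78.2 and 86.99 FPKM) and JAZ9, a repressor (37.8, against 33.4 and 34.9 FPKM), were not called. MYC2, the central activator, was called higher (18.3, against 7.11 and 8.24 FPKM), but 98.5% of its exonic bases overlap another gene and the call ended under each of the 3 scalings. None of the 13 glucosinolate synthesis genes and none of the 11 genes of myrosinase and ER bodies, the stores of the mustard oil defence, was called. Of all compared genes 14.3% were called, and with so few members the absence of calls is read as no result.

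Of 15 compared genes of touch and early stress response 11 were lower and 0 higher (median -1.61). ZAT10, a zinc finger repressor, had 1.482 FPKM in replicate 3, against 20.7 and 22.1 FPKM in replicates 1 and 2 (-3.17). ERF104, an ethylene response factor, had 5.65 FPKM in replicate 3, against 52.4 and 52.6 FPKM in replicates 1 and 2 (-3.01). TCH3, a calmodulin-like protein, had 22.9 FPKM in replicate 3, against 94.4 and 94.4 FPKM in replicates 1 and 2 (-1.999), with 22.5% of its exonic bases in another gene. TCH4, a wall enzyme of the same touch response, was not called, with 23.61 FPKM in replicate 3 and 22 and 19.4 FPKM in replicates 1 and 2. ERF105, one of the 11, lies fully within exons of another gene. The 11 calls held under each scaling, though not all of these genes stayed in the comparison at a filter of 10 FPKM, ERF105 for example.

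Nutrient lists differed among themselves. Of 14 phosphate starvation genes 9 were lower and 0 higher (median -1.59). SPX3, a sensor protein of phosphate status, had 1.05 FPKM in replicate 3, against 15.5 and 18.1 FPKM in replicates 1 and 2 (-3.12). IPS1, a noncoding RNA that sequesters a microRNA of phosphate balance, had 5.95 FPKM in replicate 3, against 38.3 and 39.03 FPKM in replicates 1 and 2 (-2.51). MGD3, which makes galactolipids in place of phospholipids, had 1.04 FPKM in replicate 3, against 10.7 and 9.45 FPKM in replicates 1 and 2 (-2.44). The other pair was close in each. SQD1, of sulfolipid synthesis, was not called (81.4, against 73 and 74.6 FPKM). The motif P1BS (GNATATNC), bound by the phosphate regulator PHR1, was before 4 of the 14 genes and before 6.48% of all protein-coding genes. Of 20 iron genes 5 were lower and 0 higher, BHLH100 (1.96, against 10.4 and 10.2 FPKM) and the iron peptide gene IMA1 (5.001, against 17.7 and 19.4 FPKM) among them, while IRT1, the root iron transporter, was not called (10.2, against 11.2 and 14.8 FPKM). None of 11 nitrate genes was called, where 14.3% of all compared genes were, and with so few members that is read as no result. Of 7 genes of copper and superoxide dismutases 2 were higher and 1 lower. CSD2, the chloroplast copper enzyme, had 132 FPKM in replicate 3, against 21.7 and 21.3 FPKM in replicates 1 and 2 (2.56), and CSD1 was higher too (76.8, against 35.4 and 34.96 FPKM), though not under median-of-ratios scaling or quantile normalization. The lower member was FRO5, of the ferric reductase family (0.00939, against 1.35 and 1.03 FPKM). FSD1, the iron enzyme, was not called (564, against 682 and 773 FPKM).

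The hypoxia and the sugar starvation and darkness lists had mostly higher calls, and the list of abscisic acid, cold and drought had calls both ways. These counts stand beside 8.17% higher and 6.16% lower among all compared genes. Of 11 hypoxia genes 8 were higher and 0 lower (median 1.55), and all 11 differences were above 0. SUS4, a sucrose synthase, had 40.6 FPKM in replicate 3, against 10.6 and 9.82 FPKM in replicates 1 and 2 (1.89). PDC1, pyruvate decarboxylase, had 55.2 FPKM in replicate 3, against 18.4 and 16.04 FPKM in replicates 1 and 2 (1.63). ADH1, alcohol dehydrogenase of fermentation, was not called (91.6, against 48.2 and 56.03 FPKM). Of 12 genes of sugar starvation and darkness 7 were higher and 1 lower (median 1.18). ASN1, asparagine synthetase, had 60.1 FPKM in replicate 3, against 13.6 and 14.8 FPKM in replicates 1 and 2 (2.01). BXL1, a wall xylosidase, had 155 FPKM in replicate 3, against 36.7 and 33.7 FPKM in replicates 1 and 2 (2.11). DRM1, a dormancy-associated protein, was lower (79.2, against 195 and 215 FPKM). Of 22 genes of abscisic acid, cold and drought 9 were higher and 4 lower (median 0.71). RD29B, a desiccation protein, had 10.9 FPKM in replicate 3, against 0.844 and 0.647 FPKM in replicates 1 and 2 (2.77). P5CS1, of proline synthesis, had 368 FPKM in replicate 3, against 89.7 and 90.7 FPKM in replicates 1 and 2 (2.02). NCED3, of abscisic acid synthesis, had 7.05 FPKM in replicate 3, against 0.998 and 0.905 FPKM in replicates 1 and 2 (2.04). COR15B, a cold-induced chloroplast protein, was lower (4.59, against 36.8 and 36.8 FPKM, with 29.5% of its exonic bases in another gene) where its neighbour in the genome COR15A was higher (74.99, against 27.3 and 30.8 FPKM).

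Of 8 compared heat shock genes 2 were higher, MBF1C (50.4, against 8.83 and 10.5 FPKM) and HSP70 (43.7, against 16.2 and 15.3 FPKM), and the small heat shock proteins were low in every library, with HSP18.2, the highest of them, at 5.95 FPKM in replicate 3 and 4.42 and 3.40 FPKM in replicates 1 and 2. Of 12 senescence genes 3 were higher and 2 lower. SAG29, a sugar transporter, had 71.7 FPKM in replicate 3, against 2.19 and 1.59 FPKM in replicates 1 and 2 (4.66). SAG13, a dehydrogenase, had 1.46 FPKM in replicate 3, against 33.6 and 35.7 FPKM in replicates 1 and 2 (-3.85), so members of this list lay at both ends. SAG12, the cysteine protease that marks leaf senescence, stayed under 1 FPKM in every library. Of 17 compared flavonoid genes 2 (11.8%) were lower and 0 higher, beside 6.16% lower and 8.17% higher of all compared genes. With so few calls the count is read as no result, while 16 of 17 differences were below 0 (median -0.58). The lower members were FLS1, flavonol synthase (24.7, against 68.1 and 65.5 FPKM), and PAP2, a MYB regulator of anthocyanin (0.0638, against 2.63 and 2.22 FPKM), whereas CHS, the entry enzyme, was not called (170.0, against 154 and 201 FPKM).

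In the antenna, photosystem and Calvin cycle lists few members were called, and the counts are read as no result about these lists. Of all compared genes 8.17% were higher and 6.16% lower, together 14.3%. Of 21 antenna genes 3 (14.3%) were higher and 1 (4.76%) lower, and of 30 photosystem genes 4 (13.3%) higher and 2 (6.67%) lower. Of 27 Calvin cycle and photorespiration genes 2 (7.41%) were higher and 4 (14.8%) lower. Under median-of-ratios scaling the antenna calls became 1 higher and 1 lower, the photosystem calls 2 higher and 3 lower and the Calvin cycle calls 1 higher and 4 lower. The Calvin cycle median was -0.05, against 0.11 without that scaling. LHCB2.3 had 2150.0 FPKM in replicate 3, against 479 and 551 FPKM in replicates 1 and 2 (2.06) and 40.6% of its exonic bases overlap another gene. Photosystem I subunit genes went both ways: PSAD1 was higher, with 3934 FPKM in replicate 3, against 1409.8 and 1645 FPKM in replicates 1 and 2. PSAE2 was lower, with 509.6 FPKM in replicate 3, against 1471 and 1444 FPKM in replicates 1 and 2. RBCS1B had 789.9 FPKM in replicate 3, against 4826 and 5559 FPKM in replicates 1 and 2 (-2.71). CP12-2, a regulator of the Calvin cycle, had 225 FPKM in replicate 3, against 945 and 997 FPKM in replicates 1 and 2 (-2.10). PGLP1, a phosphatase of photorespiration, had 3.38 FPKM in replicate 3, against 165 and 151 FPKM in replicates 1 and 2, but 94.1% of its 50-base words occur in another gene. Of 16 chlorophyll genes 5 were higher and 1 lower, with CHLH, a subunit of magnesium chelatase, at 706 FPKM in replicate 3, against 314 and 310.1 FPKM in replicates 1 and 2. CAT2, the catalase of photorespiration, had 1081 FPKM in replicate 3, against 300.2 and 306 FPKM in replicates 1 and 2 (1.83). MT2B, a metallothionein, had 1112 FPKM in replicate 3, against 8029 and 7740.0 FPKM in replicates 1 and 2 (-2.82). Of the chlorophyll calls 2 higher (GUN4 and CAO) and 1 lower (PORB) held under median-of-ratios scaling, while HEMA1, CHLH and CRD1 lost theirs.

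Organ markers are given because whole seedlings may differ in the share of each organ. Of 25 compared root genes 6 were higher and 1 lower in replicate 3 (median 0.51), and the list's share of the summed FPKM was 0.0375% in replicate 3 and 0.0238% and 0.0248% in replicates 1 and 2. PRP3, a root hair wall protein, had 57.98 FPKM in replicate 3, against 16.6 and 23.5 FPKM in replicates 1 and 2. SCR, of the endodermis, had 26.9 FPKM in replicate 3, against 11.6 and 11.2 FPKM in replicates 1 and 2. CASP1 was not called, nor was EXPA7, a root hair expansin (5.09, against 7.73 and 7.14 FPKM). Of 18 genes of epidermis, stomata and cuticle 4 were higher and 0 lower, with a median of 0.56, and 2 of the 4, CER1 and KAT1, kept the call under median-of-ratios scaling. CER1, of wax alkane synthesis, had 87.5 FPKM in replicate 3, against 23.9 and 25.4 FPKM in replicates 1 and 2 (1.79). KAT1, a guard cell potassium channel, had 35.5 FPKM in replicate 3, against 8.18 and 7.91 FPKM in replicates 1 and 2 (2.01). All 12 vascular genes had differences above 0, and 1 (8.33%), IRX9, was called higher, near the 8.17% of all compared genes. Of 14 aquaporins 4 were higher and 0 lower, with a median of 0.80. The 4 calls stayed under the other scalings and ended under median-of-ratios scaling, where the median was 0.65. The part of organ proportions in the other lists was not tested. SOC1, an activator of flowering, was higher (42.6, against 10.3 and 9.26 FPKM), and SEP3, of floral identity, lower (2.36, against 7.64 and 7.69 FPKM).

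Some lists had few calls or none. None of the 14 PEAT genes was called, with differences from -0.05 (TRB1) to 0.57 (EPCR2). Of 22 cell cycle genes 1 was called, CYCD3;1 (43.5, against 15.1 and 13.7 FPKM). None of 7 genes of protein folding in the endoplasmic reticulum was called, though 1 was lower under median-of-ratios scaling, and of the 16 compared reference genes for quantitative PCR 1 was, YLS8. These counts stand beside the 14.3% called among all compared genes. Of 302 compared cytosolic ribosomal protein genes 13 were higher and 49 lower (median -0.26), and under median-of-ratios scaling 9 higher and 68 lower. Near-identical copies bear on that family: the 3 copies AT1G58684, AT1G58983 and AT1G59359, annotated in the ribosomal protein S5 family, were listed at 0 in replicate 3, against 262, 275 and 264 FPKM in replicate 1 and 254, 266 and 255 FPKM in replicate 2, and all of their 50-base words occur in another gene. Of 6 translation factors 3 were lower, the copies EF1A1, EF1A2 and EF1A3, while EF1A4 (1343, against 1101 and 1102 FPKM) and LOS1 were not called.

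Transcript length and copy number moved with the calls. Under 200 nt 167 of the 170 compared genes were called higher, but of all 918 such genes only 2 and 3 were above 0 in replicates 1 and 2. Nearly all of the 170 thus entered the comparison through replicate 3. A gene at 1 FPKM there and 0 in the others is called by the rule itself, so this count is read as no result. At 500 to 1000 nt the balance was the other way, with 431 of 2736 genes (15.8%) lower and 265 (9.69%) higher and a median difference of -0.20. The transcripts of PR1, ELF4, PCC1, PDF1.2 and MT2B, described above as lower, are of that length. So are those of PRE1 (856 nt), PDF2.5 (690 nt), SAUR24 (626 nt) and RTFL18 (505 nt), which were called higher. The part of length in these calls was not tested. At 1000 to 2000 nt 6.85% were higher and 5.79% lower, and from 1000 nt upward the median of a length class lay between 0.10 and 0.28. At least 10 FPKM in replicate 3 and 0 in both of the others was listed for 157 genes, of median length 120 nt and with 138 under 300 nt. They were 66 protein-coding genes, 46 small nucleolar RNA genes (guides for the modification of ribosomal RNA), 27 microRNA genes, 13 transfer RNA genes and 5 others. These genes were picked by their values in replicate 3 and entered the comparison through it alone. Their lengths and classes are therefore a description and no result about length. AT2G01021, of 102 nt, had 21605 FPKM in replicate 3, and MT1A, a metallothionein whose annotated transcript is 138 nt and lies fully within another gene, had 13563. Of the 25 largest differences upward 24 were of transcripts under 300 nt, but 24 were also at 0 in both other libraries, so the same limit holds.

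Genes with many shared words were called in both directions more often, and mostly lower. Among the 130 compared genes with 80% or more of their 50-base words in another gene, 79 (60.8%) were lower and 27 (20.8%) higher in replicate 3 (median -1.70), against 5.44% lower and 8.07% higher (median 0.16) of genes with no shared word. Genes with a share above 0 and under 20% were near balance, with 137 of 2075 lower and 158 higher. Of 23 genes at 10 FPKM or more in both replicates 1 and 2 and at 0 in replicate 3, 18 shared 20% or more of their words. The 18S ribosomal RNA gene AT2G01010 had 0.0415 FPKM in replicate 3, against 1827 and 2224 FPKM in replicates 1 and 2, and 94.3% of its words occur in another gene. Where 50% or more of a gene's exonic bases overlap another gene, 33.9% of 760 genes were higher and 13.8% lower, against 7.59% and 6.02% of 13958 genes with no overlap. This class was not split by length, and some of its genes, MT1A among them, entered the comparison only through replicate 3. Its share of higher calls is therefore read as no result. Over genes of 300 nt or longer with less than 20% shared and less than 20% overlapped, 1086 of 17720 (6.13%) were higher and 917 (5.17%) lower, so most of the calls were of such genes. The median difference lay between 0.14 and 0.20 in 5 classes of GC content.

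**Figure D5:**
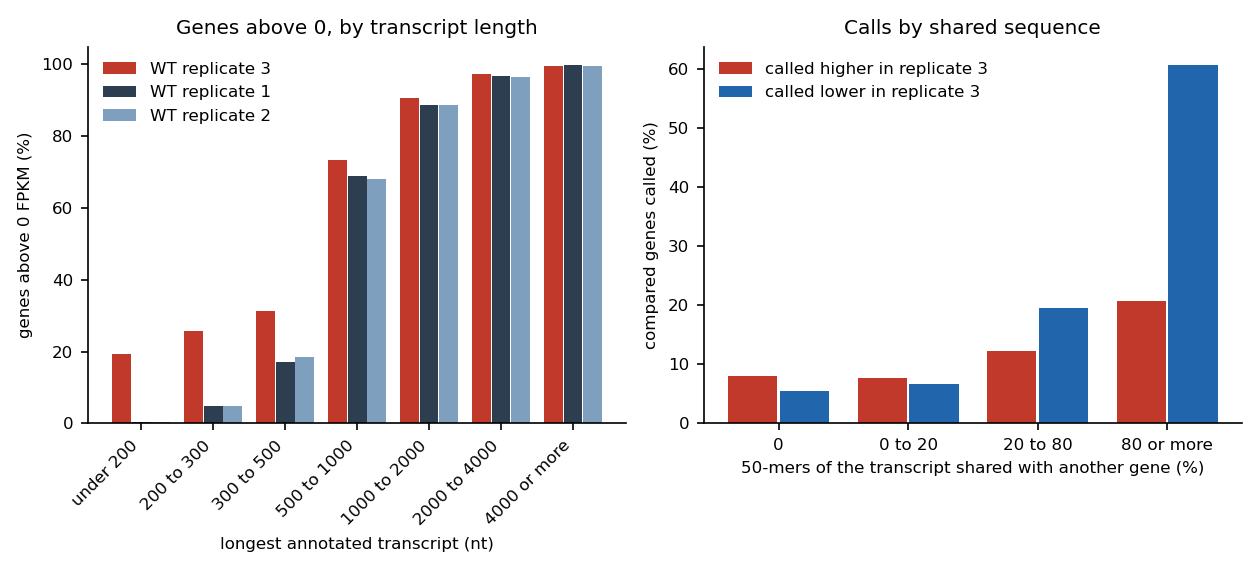
On the left, the percentage of genes above 0 FPKM by length of the longest annotated transcript, in WT replicate 3 (red), replicate 1 (dark) and replicate 2 (light); under 200 nt it is 19.3%, 0.218% and 0.327%. On the right, the percentage of compared genes called higher (red) or lower (blue) in replicate 3 by the share of their 50-base words found in another gene; 60.8% of genes with 80% or more shared words were lower.

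Replicates 1 and 2 differed from each other in few genes. The 10 largest differences at 10 FPKM or more included AT4G00975, an RNA gene, with 0.173 FPKM in replicate 3 and 55.5 and 0.191 FPKM in replicates 1 and 2, and AT2G36030, with 99.5 FPKM in replicate 3 and 32.5 and 0 FPKM in replicates 1 and 2. Of the 10, 7 had a transcript under 300 nt. RTFL14, a small peptide gene with a longer one, had 14.9 FPKM in replicate 3 and 10.1 and 2.89 FPKM in replicates 1 and 2. Over the lists, the median difference of replicate 1 minus replicate 2 lay between -0.15, for photosystem and electron transport genes, and 0.13, for sugar starvation and dark genes.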

How the data were processed

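The deposited table of the whole series gives 1 value per gene and library. Its header names no unit, and the 3 WT columns were read as FPKM from their values and from the submitters' processing notes, which name STAR 2.5.2b, Cuffdiff and the build TAIR10, with no role or order. The FPKM values were used as deposited by the authors. Whether the table was filtered or normalized further is not given in the sources used here. FPKM keeps no counts, so the depth is a rough estimate from the smallest steps between values, and no counting interval is given. The labels state total RNA and an mRNA-seq library for each sample.

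Values were compared as log2(FPKM + 1). A gene entered the comparison of replicate 3 with replicates 1 and 2 where any library had 1 FPKM, and was called at a 2-fold difference from both. With 1 library against 2 no test was run. Gene lists (39 lists, 611 genes) and families (29, by words of the annotation) were described by counts and medians. Members and lists were chosen with earlier results of these data known. Named genes were the 25 highest, the 25 largest differences each way, the 20 most stable, the 10 largest differences between replicates 1 and 2, and from each list up to 4 members of the highest mean, up to 4 called ones and those at 0. Further members were named for their known role after their values were seen. Names, lengths, overlaps, shared 50-base words and promoters came from the TAIR10.1 annotation and genome of RefSeq, matched by locus for 27839 of 28117 genes. The remaining 278 are organelle genes. Python 3.11.15 was used with pandas 2.3.3, numpy 2.4.6, scipy 1.17.1 and matplotlib 3.10.9. Alternatives were the pseudocount, the filter, 3 scalings, the fold, leaving out each library, and, chosen after seeing the data, leaving out short, copied or overlapped genes.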

Additional observations from a re-analysis of the deposited data

How the results depend on the processing

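The counts of 1632 genes higher and 1231 lower in replicate 3 were 3785 and 2477 at 1.5-fold, since the threshold is lower. Under a pseudocount of 0.1 they were 2105 and 1559, and with a filter at 10 FPKM, which leaves fewer genes, 1099 and 902. Median-of-ratios scaling gave 1265 and 1538, quantile normalization 1282 and 1536, and rescaling to the same sum 1446 and 1367. Leaving out replicate 1 or 2 gave 1869 to 1939 higher and 1381 to 1463 lower. No gene called in these data took the opposite call under any of these settings, but that outcome was largely fixed by the rule. A lower fold, a smaller pseudocount, no filter or leaving out replicate 1 or 2 cannot remove a call. Median-of-ratios scaling moved the median difference only from 0.15 to 0.01. Of 254 named called genes 203 were called under every setting, a count on which only the scalings and the filter at 10 FPKM bear. The median difference changed sign under at least 1 of the 3 scalings for the lists of Calvin cycle, pollen, nitrate and cell cycle genes, which lay near 0. Genes stable over the libraries numbered 7350, and 6648 to 16608 with 1 library left out, 16608 being the count without replicate 3. With 1 library left out, genes at 0 numbered 4219 to 5005, and genes at 1 FPKM or more in every remaining library 18102 to 18522. The 100 highest genes held 27.7% to 28.7% of the sum with 1 library left out, and 23.1% where FPKM was multiplied by transcript length, which weights short genes less. No paired analysis was possible because the 3 libraries belong to 1 group and no second group was compared. Rough depth differs between libraries, at 49.9 M fragments for replicate 3 and 22.4 and 20.09 M for replicates 1 and 2, and limits genes near 0.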

Other observations

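Among genes of 300 nt or longer that share and overlap little with other genes, the largest differences of replicate 3 held genes outside the lists above. They are given as values and were chosen after their values were seen. MAPR2, a membrane-associated progesterone binding protein, had 3.82 FPKM in replicate 3, against 1303 and 1212 FPKM in replicates 1 and 2. OEP6, an outer envelope membrane protein, had 142 FPKM in replicate 3, against 2468 and 2128 FPKM in replicates 1 and 2, and OEP16-1, an outer plastid envelope protein, 13.2 FPKM in replicate 3, against 320.2 and 318 FPKM in replicates 1 and 2. These 3 genes were abundant in replicates 1 and 2 and 10-fold or more lower in replicate 3. PDF1.3, a plant defensin, had 0.0571 FPKM in replicate 3, against 81.4 and 85.4 FPKM in replicates 1 and 2, and LURP1, a LURP-one-like protein, 6.24 FPKM in replicate 3, against 334 and 341 FPKM in replicates 1 and 2. ACD6, an ankyrin repeat protein of defence, had 6.02 FPKM in replicate 3, against 126 and 107 FPKM in replicates 1 and 2. COR27, a cold-regulated protein that also acts in the clock, had 0.117 FPKM in replicate 3, against 18.3 and 16.3 FPKM in replicates 1 and 2, and JMJD5, a jumonji-domain protein of the clock, 0.893 FPKM in replicate 3, against 31.98 and 30.9 FPKM in replicates 1 and 2. All of these were lower in replicate 3, with replicates 1 and 2 close together.

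In the other direction AT4G27450, annotated as an aluminum induced protein, had 265 FPKM in replicate 3, against 20.9 and 22.98 FPKM in replicates 1 and 2. SAUR24, of the auxin-induced SAUR family, had 152 FPKM in replicate 3, against 12.6 and 10.01 FPKM in replicates 1 and 2. PDF2.5, annotated as a knottin, had 126 FPKM in replicate 3, against 7.12 and 8.58 FPKM in replicates 1 and 2. RTFL18, a gene of the ROTUNDIFOLIA-like peptides, had 179.6 FPKM in replicate 3, against 0.654 and 0 FPKM in replicates 1 and 2. In the last gene replicate 3 was the only library above 1 FPKM.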
